A study of Homo sapiens with 12 samples.

Results

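RORγ-bound regions were set against H3K27ac-marked regions in HCC70 cells treated with vehicle for 24 h. The members were all regions on chromosomes 1 to 22 and X in the peak lists of these 2 libraries, which gave 167264 RORγ regions and 95099 H3K27ac regions, together 262363 of the 684829 regions in all peak lists of the series. The series held 12 samples, in which RORγ, the transcription factor SREBP2 and H3K27ac were each immunoprecipitated after vehicle or after the RORγ antagonist XY018, with an input library for every immunoprecipitation. Each group consisted of 1 library. The question of the comparison was how RORγ occupancy relates to acetylated chromatin when the receptor is not inhibited.

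HCC70 is an established human cell line from a triple-negative (hormone receptor- and HER2-negative) breast tumour, and both groups were these cells kept in the same medium with vehicle, and they differed in the antibody. RORγ was precipitated with a rabbit serum raised against a purified fragment of the human protein, and H3K27ac with a commercial antibody (ab4729). Markers of the cell type were read at promoters. H3K27ac was called at all 4 epithelial markers (EPCAM, CDH1, KRT7, CLDN4) and at 9 of 12 basal markers, with none at KRT14, KRT6A and KRT6B. It was called at 8 of 11 luminal and hormone receptor markers, among them ESR1 at a fold of 5.07 and GATA3 at 68.9. Of 6 leukocyte markers 3 had it and of 5 fibroblast markers 1 had it (COL1A1), against 66.8% of all protein-coding promoters.

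RORγ is a nuclear receptor that binds DNA as a monomer at ROR response elements, a GGTCA core after an A/T-rich stretch, and recruits coactivators when a ligand holds its ligand-binding domain in the active form. Several of these coactivators work with acetyltransferases such as p300 and CBP, which place acetyl groups on lysine 27 of histone H3. H3K27ac marks nucleosomes at active promoters and enhancers, so its signal usually flanks the factor-bound DNA and spreads beyond it. RORγ is best known in Th17 lymphocytes and in clock and lipid metabolism genes, whereas in triple-negative breast cancer cells it has been studied for control of cholesterol synthesis.

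Depth and values were those of the deposited lists. The fold of a region is its fragment pileup at the summit plus 1, over the local background plus 1. Inverting the fold and its p-value gave whole fragment numbers for 100% of regions in both lists. The RORγ library had 4.04 tags per kb and a median of 7 fragments at the summit, whereas the H3K27ac library had 6.16 tags per kb and a median of 15. The RORγ list ran down to weak calls, with q-values up to 0.371. Its 34826 regions at q of at most 1e-05, called strong regions here, had a median of 21 fragments. Intervals given are exact binomial 95% intervals (Clopper-Pearson). They cover counting error only, and with 1 library per group no difference has a replicate check and none was tested.

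Examples of the summit sequences are given so that the classes compared can be seen. For each class, the summit and the 50 bases to either side of it are given from the plus strand of hg19 for the region with the highest fold, leaving out windows that touch an annotated exon. Capitals mark GGGCGG, the GC box, on either strand in the first 4 sequences. At the DHX32 promoter, 308 bp from a transcript start, RORγ reached a fold of 49.3 (209 fragments) with H3K27ac at 18.8 (109 fragments), and the summits were 151 bp apart (chr10:127584647-127584747). The PEX5L promoter had RORγ at 54.7 (119 fragments) with the nearest acetylated region 384 kb away (chr3:179754877-179754977). Intergenic regions 11.8 kb from PCMTD2 (chr20:62947919-62948019) and 28.9 kb from PPM1A (chr14:60794670-60794770) had RORγ folds of 59.3 and 59.1. The first had H3K27ac at 7.83 with its summit 19 bp away, and the second had its nearest acetylated edge at 77.7 kb.

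DHX32 promoter, RORγ and H3K27ac: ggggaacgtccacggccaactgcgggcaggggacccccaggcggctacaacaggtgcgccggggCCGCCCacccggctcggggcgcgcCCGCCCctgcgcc
PEX5L promoter, RORγ alone: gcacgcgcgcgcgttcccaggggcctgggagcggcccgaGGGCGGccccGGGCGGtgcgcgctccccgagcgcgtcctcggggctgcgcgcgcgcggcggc
near PCMTD2, RORγ and H3K27ac: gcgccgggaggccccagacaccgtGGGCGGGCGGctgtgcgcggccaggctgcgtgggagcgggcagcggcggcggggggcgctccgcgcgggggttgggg
near PPM1A, RORγ alone: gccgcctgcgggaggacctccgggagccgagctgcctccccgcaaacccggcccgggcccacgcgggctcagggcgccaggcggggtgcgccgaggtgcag

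All 4 windows were between 81.2% and 87.1% G+C, with or without acetylation. The next pair are the strongest gene body regions with the ROR response element core in the strict form counted below, which is in capitals. In CAP2 (chr6:17394166-17394266), RORγ at a fold of 31.4 met H3K27ac at 27.3. In RUNX2 (chr6:45610264-45610364), RORγ was at 15.1 and the nearest acetylated edge was 16.5 kb away. The last pair are acetylated regions without RORγ. The EMC1 promoter (chr1:19578109-19578209) had H3K27ac at 63.8 (175 fragments) with the nearest RORγ summit 1.83 kb away. The C1orf116 gene body (chr1:207197806-207197906) was chosen as the strongest with TGANTCA, the AP-1 site, in capitals. It had H3K27ac at 18.4 (56 fragments), and the nearest RORγ summit was 29.7 kb away.

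CAP2 gene body, RORγ and H3K27ac: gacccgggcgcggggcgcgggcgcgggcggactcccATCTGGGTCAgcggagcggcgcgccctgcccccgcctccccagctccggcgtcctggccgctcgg
RUNX2 gene body, RORγ alone: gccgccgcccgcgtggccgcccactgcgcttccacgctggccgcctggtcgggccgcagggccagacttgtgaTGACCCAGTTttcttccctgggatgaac
EMC1 promoter, H3K27ac alone: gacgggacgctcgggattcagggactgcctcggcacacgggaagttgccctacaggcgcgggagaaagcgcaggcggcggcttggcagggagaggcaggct
C1orf116 gene body, H3K27ac alone: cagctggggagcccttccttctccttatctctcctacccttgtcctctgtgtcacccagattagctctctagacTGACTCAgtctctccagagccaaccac

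The G+C content of these was 84.2% in CAP2, 70.3% in RUNX2, 69.3% at EMC1 and 54.5% in C1orf116.

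Most RORγ regions lay outside acetylated chromatin, and most acetylated regions lacked RORγ. Of 167264 RORγ regions 27872 (16.7%, interval 16.5 to 16.8) shared at least 1 bp with an H3K27ac region. Of 95099 H3K27ac regions 26499 (27.9%, 27.6 to 28.2) overlapped RORγ. H3K27ac regions covered 62.6 Mb, which is 2.21% of the sequenced bases, and windows of the RORγ regions moved by 10 kb to either side overlapped H3K27ac in 7.21%. Among strong RORγ regions 18918 of 34826 were acetylated (54.3%, 53.8 to 54.8), and 14.6% of their moved windows. SREBP2, the other factor profiled in the same cells, gave 27.3% over its whole list and 50.2% among its strong regions.

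Position separated the regions further. Promoter summits, those no more than 1000 bp before or 100 bp after an annotated transcript start, were acetylated in 11137 of 21008 (53.0%, 52.3 to 53.7). Gene body summits were acetylated in 13949 of 91390 (15.3%, 15.03 to 15.5), and intergenic summits in 2786 of 54866 (5.08%, 4.90 to 5.26). The same order held among strong regions, at 73.6%, 52.4% and 24.3%. SREBP2 strong regions gave 69.4%, 45.8% and 26.0% in that order. Among strong regions the counting intervals of RORγ and SREBP2 did not overlap at promoters (72.8 to 74.4 against 68.7 to 70.1) or in gene bodies (51.7 to 53.2 against 45.2 to 46.4). Between genes they did (23.3 to 25.4 against 25.03 to 26.9). The order of RORγ and SREBP2 depended on the threshold. Over its whole list SREBP2 had the higher share in each position, at 58.4%, 24.1% and 10.7%. With 1 library each, these intervals do not show a difference between the factors.

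In the other direction, RORγ was found at 53.1% of 19175 promoter H3K27ac regions, 23.1% of 59146 in gene bodies and 15.9% of 16778 between genes. Gene bodies held 50.05% of the acetylated RORγ regions and promoters 39.96%, whereas 12.6% of all RORγ regions lay at promoters. Wide acetylated regions carried RORγ more often. These shares were not adjusted for width, and a wider region can meet more regions by size alone. The share was 17.5% under 300 bp and 74.0% at 2 kb and wider, where 33.4% held at least 2 RORγ regions. At promoters of that width it was 89.1%. The highest number of RORγ regions within 1 acetylated region was 7.

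Acetylation went with RORγ strength, but not at the top of the promoter range. Over deciles of fold across the whole list, the acetylated share was 5.54% in the lowest decile, 12.3% in the eighth, 46.0% in the ninth and 65.1% in the highest. Within strong promoter regions it was 66.4% (63.6 to 69.1) in the lowest decile, highest in the fifth at 82.7% (80.4 to 84.8), and down to 53.9% (51.0 to 56.8) in the highest, which spanned folds of 26.0 to 73.4. Gene body regions went from 21.9% to 70.02% in the ninth decile and 64.3% in the highest. Intergenic regions went from 5.97% to 41.5%. At SREBP2 promoters the highest decile was at 73.9% (71.7 to 76.0) and the ninth at 78.4% (76.4 to 80.4).

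**Figure D1:**
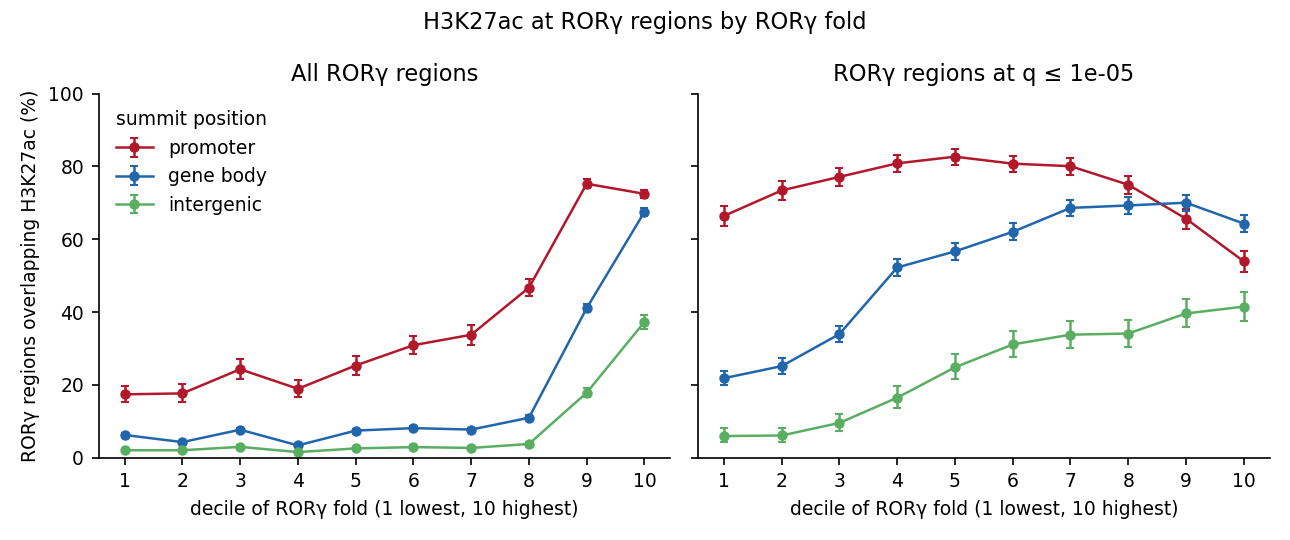
Percent of RORγ regions that overlapped H3K27ac (y axis) by decile of RORγ fold (x axis), in all regions (left) and in regions at q of at most 1e-05 with deciles taken within each position (right). Points are shares by summit position and bars exact 95% binomial intervals. Promoter shares in the right panel peak at 82.7% in the fifth decile and end at 53.9% in the highest.

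At promoters the H3K27ac fold was also lowest in the highest RORγ decile. Where strong RORγ promoter regions were acetylated, the median H3K27ac fold was 26.0 in the lowest decile of RORγ fold, 33.0 in the sixth, 14.3 in the ninth and 10.2 (quartiles 6.73 and 18.0) in the highest. In gene bodies it was 8.19 in the lowest decile, 13.3 in the seventh and 9.85 in the highest, and between genes it was 7.83, at most 10.5 in the fourth and 8.29 in the highest. Across the 8521 strong acetylated promoter regions Spearman's rho between the folds was -0.15, and it was 0.07 in strong gene body and -0.04 in strong intergenic regions. Over the overlapping regions as deposited, it was 0.01 at promoters, 0.37 in gene bodies, 0.30 between genes and 0.25 in all 27872. These are descriptions over regions of the same pair of libraries, which share base composition and local background.

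Base composition at the summit differed between regions with and without H3K27ac. Over the deciles of strong promoter regions its median went from 70.6% in the lowest to 75.1% in the fifth and 77.6% in the highest and fell between no neighbouring deciles, also where the acetylated share and the H3K27ac fold fell. The G+C content within 100 bp of the summit was 76.1% in the median strong acetylated promoter region and 72.1% in the strong ones without H3K27ac. In weak promoter regions it was 69.7% with and 54.2% without H3K27ac. Among acetylated regions, RORγ was found in 0.976% of those under 40% G+C, 47.5% of those from 60 to 70%, 93.7% from 70 to 80% and 99.7% at 80% or more. This held at each level of acetylation. In the weakest decile of H3K27ac fold, 175 of 180 regions with 70% G+C or more overlapped RORγ (97.2%), beside 7807 of 8175 in the strongest decile (95.5%). Under 50% G+C the same deciles gave 5.15% and 3.64% (0.443 to 12.5, 55 regions).

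The reverse share also rose with G+C, from 2.42% of strong RORγ regions at 40 to 50% to 79.5% at 80% or more. Strong promoter regions of high G+C were still acetylated less often at the highest folds. From 75 to 80% G+C, 95.7% were acetylated at folds under 10 and 50.9% of 328 at folds of 30 or more. At 80% or more the same values were 96.0% and 61.5%. What part base composition had in the overlap was not tested.

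**Figure D2:**
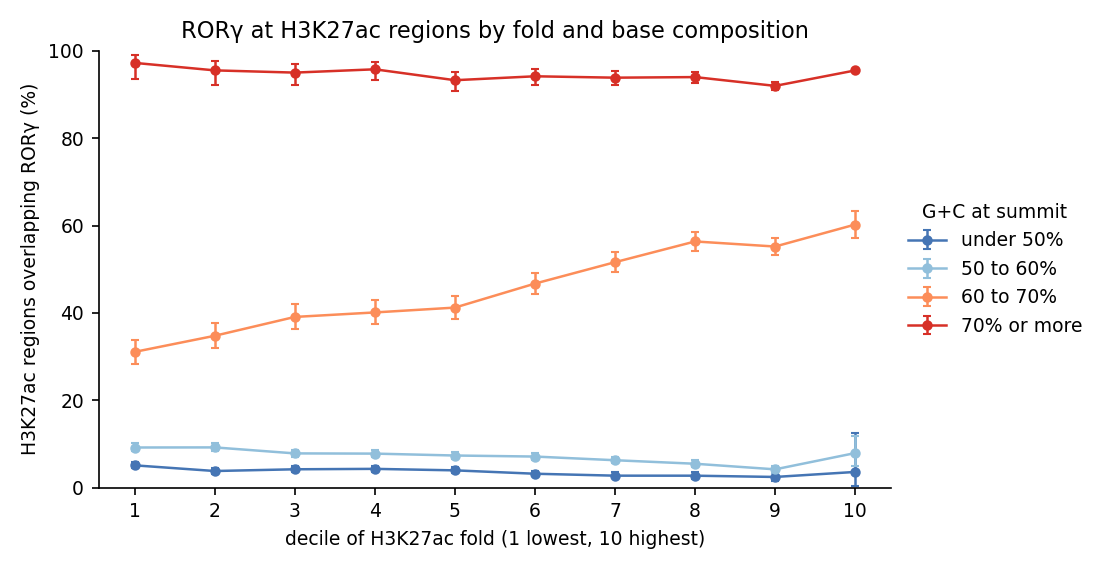
Percent of H3K27ac regions that overlapped RORγ (y axis) by decile of H3K27ac fold (x axis), drawn separately for 4 classes of G+C content within 100 bp of the H3K27ac summit. Bars are exact 95% binomial intervals. Regions at 70% or more lie between 92.0% and 97.2% in every decile, and those from 60 to 70% go from 31.1% to 60.2%.

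Motifs were counted within 100 bp of the summit on both strands. GGGCGG was in 71.4% of strong acetylated and 57.5% of strong unacetylated promoter regions, in 46.7% of all protein-coding promoters over the same length at the 5′-most start, and in 15.9% of windows 1 kb to either side of the promoter summits. Between genes the shares were 58.0% and 34.3%, beside 8.26% in the flanks. Strong intergenic regions with GGGCGG were acetylated in 35.2% (33.3 to 37.1) and those without in 17.1% (15.9 to 18.3). The ROR response element core was counted only in a strict form, with A or G directly before GGTCA. The putative elements that the paper mutated at MVK and HMGCS1 have T at that place and would not be counted. Looser forms were not counted, so the numbers do not show how many regions hold a response element. The strict form was in 9 strong promoter regions, 19 gene body regions and 1 intergenic region. That was 0.0587% of acetylated and 0.131% of unacetylated strong promoter regions, beside 0.314% of all protein-coding promoters. Of the 19 in gene bodies 6 were acetylated (31.6%, 12.6 to 56.6), and of the 9 at promoters 5 were (55.6%, 21.2 to 86.3).

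Motif shares also differed between acetylated regions without and with RORγ, given in that order. TGANTCA was in 4.28% and 1.90% of gene body H3K27ac summits, and GGAATG, the TEAD site, in 9.21% and 4.83%. CCAAT, the NF-Y box, was in 16.4% and 6.32% of promoter summits, against 25.9% of all protein-coding promoters. The ETS core CCGGAAG was in 2.81% and 4.64% at promoters, against 10.1% of all. The E-box CACGTG was in 2.79% and 4.66%, against 5.87%. The SREBP element TCACNCCAC was in 1.82% and 0.718%, against 0.747%. The NRF1 palindrome was in 0.144% and 0.295%, and the CTCF core in 0.0889% and 0.216%, beside 1.19% and 0.363% of all protein-coding promoters. Each motif was counted on its own, also where matches of different motifs overlapped. Windows of all protein-coding promoters were centred on the 5′-most start and the others on H3K27ac summits, so those shares are not directly comparable. The acetylated regions without and with RORγ also differed in median G+C, at 55.2% and 74.1% at promoters and 51.7% and 69.7% in gene bodies. The motif shares were not adjusted for it. These matches describe letters, not binding.

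Where the signals met, RORγ summits sat inside the acetylated region and close to its summit. Of 27872 overlapping RORγ regions 94.6% (94.3 to 94.9) had the summit inside, at a median of 236 bp from the nearer edge. The remaining 5.40% had it a median of 87 bp outside. Taken along the acetylated region from 0 to 1, the quartiles of the position were 0.325, 0.491 and 0.660. The median distance to the nearest H3K27ac summit was 68 bp (interval of the median 67 to 70, quartiles 25 and 230), and 59.4% of summits were within 100 bp. The midpoint of the acetylated region was farther, at a median of 124 bp.

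Strong regions lay closer, with a median of 54 bp in all, 62 bp at promoters, 48 bp in gene bodies and 44 bp between genes. As a yardstick, the same antibody in the vehicle and XY018 libraries gave median distances of 56 bp for RORγ and 48 bp for H3K27ac. These were 39 bp from strong vehicle RORγ regions and 32 bp from vehicle H3K27ac regions with RORγ. SREBP2 and H3K27ac summits of the vehicle libraries were 54 bp apart. The distance grew with the width of the acetylated region. It was 47 bp under 500 bp and 384 bp at 2 kb and wider, where 44.2% of RORγ summits lay more than 500 bp from the H3K27ac summit.

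**Figure D3:**
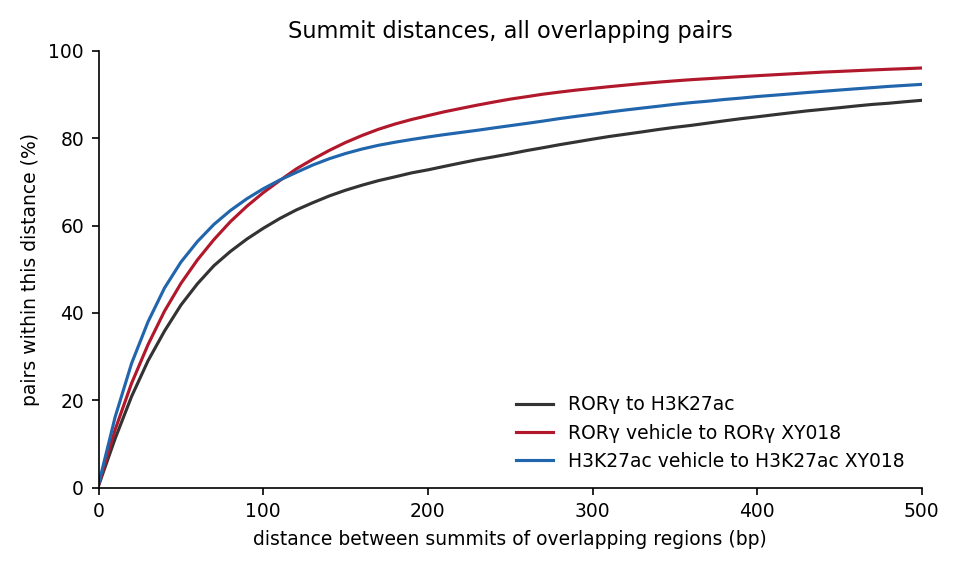
Cumulative percent of overlapping pairs (y axis) by distance between their summits in bp (x axis), for RORγ against H3K27ac with vehicle (black), RORγ vehicle against RORγ XY018 (red) and H3K27ac vehicle against H3K27ac XY018 (blue). Within 100 bp lie 59.4%, 67.5% and 68.4% of pairs in that order.

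At promoters, position was also read along transcription. In the 7702 genes where the highest RORγ and the highest H3K27ac region were taken at the same start, the median RORγ summit was 70 bp and the median H3K27ac summit 98 bp downstream of it. The median difference was -1 bp, with quartiles of -69 and 69 bp. RORγ summits of promoters without H3K27ac had a median of -38.5 bp from the start used. H3K27ac summits of promoters without RORγ had a median of 71 bp. Where several starts met the same highest region, the one with the lowest coordinate was used on both strands. The sign of these medians depends on strand and on how many starts are annotated, so they do not show which signal lies upstream.

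RORγ regions outside acetylated chromatin were mostly far from it. The median distance from their summits to the nearest acetylated edge was 45.6 kb, and 20.3 kb at promoters. Only 5.51% were within 1 kb, while 37.2% were beyond 100 kb. A RORγ summit in a gap between acetylated regions, with an edge within 1 kb on each side, was found for 874 of 139392 (0.627%), and for 1.88% at promoters. Strong regions were no closer, at a median of 49.4 kb, and 65 of 15908 were in such a gap.

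Strong promoter RORγ regions without H3K27ac had the higher median fold and the wider spread. The median fold was 11.7 with (quartiles 7.88 and 17.2) and 13.4 without H3K27ac (quartiles 7.52 and 22.5). Median fragments were 24 and 26, and median widths 707 and 727 bp. SREBP2 was called at 99.9% and 95.2%, and RORγ was called again in the XY018 library at 98.3% and 95.3%. H3K27ac was called in the XY018 library at 95.1% of those acetylated with vehicle and at 14.0% of those not. Between genes the values separated more, with a median fold of 12.4 with and 6.77 without H3K27ac, and SREBP2 at 98.9% and 72.7%. By chromosome, the acetylated share of strong regions ran from 36.3% on chromosome 5 to 70.2% on chromosome 17.

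Protein-coding genes were then sorted by the signals at their promoters, counting every annotated start. Of 20090 genes 10315 had both (51.3%), 2274 had RORγ only (11.3%), 3106 had H3K27ac only (15.5%) and 4395 had neither (21.9%). RORγ was present at 62.7% of promoters in all, and at 51.9% as a strong region. In 9680 of the 10315 genes with both (93.8%) the highest RORγ region overlapped an acetylated region, while in the others the signals lay apart or at different starts. Genes with both had the median H3K27ac fold of 31.3, against 10.6 in genes with H3K27ac only. Their median RORγ fold was 11.7, against 14.0 in genes with RORγ only. RORγ-only genes had a median of 4 annotated starts, against 7 in genes with both. At the 5′-most start, 51.5% of them were CpG-rich (G+C of at least 50% and a CpG ratio of at least 0.6 in 1 kb), against 76.8%. That start is not always the one with RORγ, so these shares do not describe the bound promoters themselves.

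The share of acetylated promoters that carried RORγ rose from 51.7% (49.0 to 54.4) in the lowest decile of H3K27ac fold to 98.7% (98.0 to 99.3) in the highest. The share of RORγ promoters that were acetylated was 65.3% in the lowest decile of RORγ fold, 92.1% in the fourth and 64.6% (61.9 to 67.2) in the highest. Of the 100 promoters with the highest RORγ fold 48 were acetylated. Of the RORγ-only promoters 380 (16.7%) had an H3K27ac call in the XY018 library, and 395 (17.4%) had H3K27ac within 5 kb of a start. Of the H3K27ac-only promoters 1749 (56.3%) had RORγ within 5 kb, 523 (16.8%) had RORγ in the XY018 library and 1606 (51.7%) had SREBP2 with vehicle. For comparison, genes with neither signal had H3K27ac within 5 kb at 16.0% and RORγ within 5 kb at 39.6%. In the XY018 libraries they had H3K27ac at 6.85% and RORγ at 6.37%, and SREBP2 with vehicle at 10.7%.

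**Figure D4:**
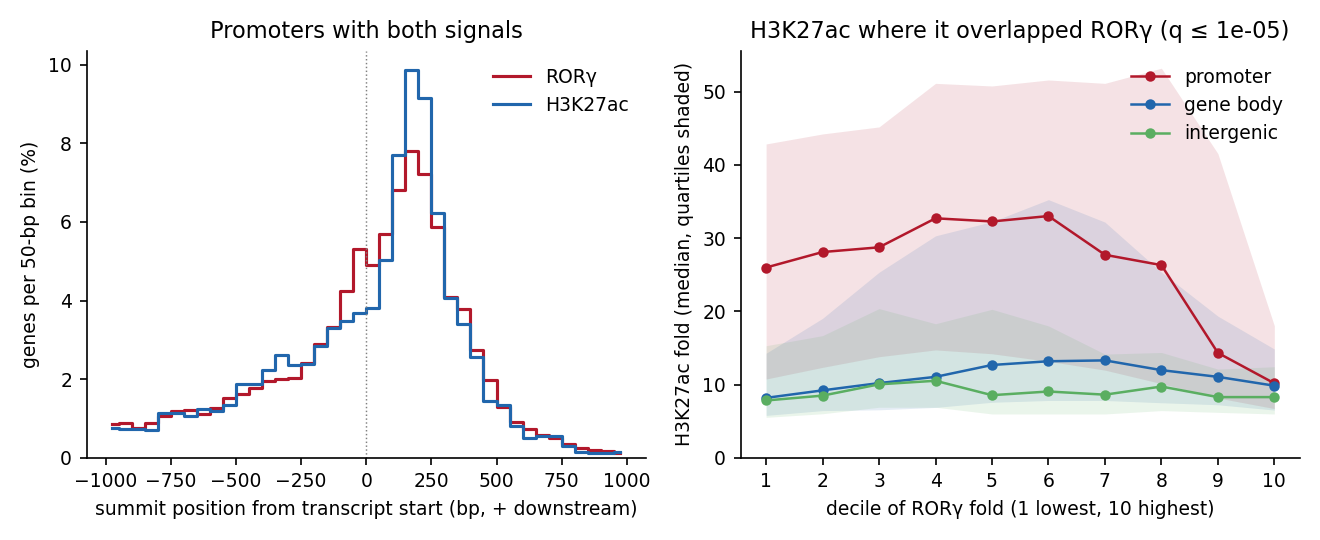
Left, position of the highest RORγ and H3K27ac summits from the transcript start in bp (x axis, positive downstream) in the 7702 genes with both at the same start, as percent of genes per 50-bp bin (y axis). Where several starts met the same highest region, the one with the lowest coordinate was used on both strands. Right, H3K27ac fold (y axis, median with quartiles shaded) where it overlapped strong RORγ regions, by decile of RORγ fold (x axis). The promoter median falls from 33.0 in the sixth decile to 10.2 in the highest.

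Genes with the highest RORγ fold and both signals were led by CACNA1B, a calcium channel subunit, at a RORγ fold of 73.4 (152 fragments) and an H3K27ac fold of 3.99 (10 fragments), with summits 118 bp apart. TERT, the catalytic subunit of telomerase, had 57.2 and 7.78, and C8orf88 had 52.7 and 4.99. CACNB2, another calcium channel subunit, had 51.4 and 3.62, and OTOA had 49.4 and 5.58. In each of these the RORγ region had several times the fold of the acetylated one. The 2 libraries differed in antibody and depth, so these folds are not on a common scale. For LMF1, PRKAR1B, TNRC18 and TRIO the highest H3K27ac region was at another start, 10279 to 342790 bp from the RORγ summit, and its fold was 33.0 to 99.6. FOXC2, a forkhead transcription factor, had RORγ at 49.8 and a separate H3K27ac region at 4.12, with 1222 bp between the summits.

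Genes with RORγ only reached nearly the same RORγ folds. ADCY2, an adenylyl cyclase, had 56.5 (153 fragments, Poisson interval 130 to 179) and its nearest acetylated region 454 kb from the 5′-most start. FAM135B had 55.0, RGS22 54.7, PEX5L 54.7, RADIL 54.5, OR2C3 54.2, DIP2C 53.7, MARCHF11 53.6, ATP8A2 52.9 and SH3GL2 51.1. RGS22 encodes a regulator of G protein signalling, PEX5L a PEX5-related protein and SH3GL2 the endocytic protein endophilin A1. These 10 were picked by their RORγ fold. SREBP2 was called at all 10, against 85.5% of all RORγ-only promoters, and RORγ in the XY018 library at all 10, against 83.1%. H3K27ac was called in the XY018 library at 3 of them, RADIL, ATP8A2 and SH3GL2, against 16.7% of all RORγ-only promoters.

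The H3K27ac-only genes with the highest folds were ZNF629 at 89.2 (245 fragments), RAB1A, a small GTPase of secretory traffic, at 88.3, RXRB, a retinoid X receptor, at 81.2 and POU2F1, the factor OCT1, at 80.2. DSC2, a desmosomal cadherin, was at 79.3, INO80D at 77.9, ENSG00000285629 at 76.7, PSPC1 at 73.7, NFYA at 72.0 and PPP1R27 at 71.9. At all 10 the acetylated region was wide enough to meet a RORγ region outside the promoter window, so they lacked RORγ by the window and not by the region. Over all H3K27ac-only genes this was so for 281 of 3106 (9.05%). Among the strongest acetylated regions that overlapped no RORγ region at all were those at HEXIM2 (fold 67.3, nearest RORγ summit 3.51 kb away), at EMC1 (63.8, 1.83 kb), in CIC (63.3, 4.05 kb) and at ING3 (61.2, 27.2 kb).

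The strongest RORγ region in each class was in part far from protein-coding genes. Beside CACNA1B at promoters, the acetylated ones were in EPPK1 (fold 69.1, with H3K27ac at 10.9 and 34 bp between summits) and near PCMTD2. Without H3K27ac they lay at a non-coding start 4.97 kb from C14orf28 (63.0, with 14.2 kb to the nearest acetylated edge), in a non-coding gene 76.4 kb from CDC14C (60.4, with 447 kb to the edge) and near PPM1A.

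The cholesterol biosynthesis genes, 21 enzymes from acetyl-CoA to cholesterol, were mostly marked by both signals. Both were found at 16, H3K27ac only at FDPS, MSMO1, PMVK and SC5D, and neither at HSD17B7. RORγ alone was found at 0 of them, against 11.3% of all genes. RORγ was thus at 16 of 21 promoters, against 62.7% of all, and H3K27ac at 20, against 66.8%. The median RORγ fold was 9.04 and the median H3K27ac fold 33.6, beside 11.7 and 31.3 over all genes with both signals.

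MVD, a decarboxylase of the mevalonate branch, had the highest RORγ fold of the pathway at 17.9 (46 fragments) with H3K27ac at 39.5. TM7SF2, a sterol reductase, had 15.8 and 51.6, with 60 bp between summits. HMGCS1, a synthase early in the pathway, had 2.80 (4 fragments) and 10.6. SC5D, a desaturase, had H3K27ac at 43.3 and no RORγ in the window, though a RORγ region lay 330 bp from its 5′-most start. At FDFT1, squalene synthase, the highest regions lay at different starts with 7990 bp between summits.

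Other sterol genes regulated by SREBP2 or acting in efflux had both signals at 11 of 13 (background 51.3%) and H3K27ac only at NR1H3, the receptor LXRα, and STARD4. FASN, fatty acid synthase, had the highest RORγ fold among them at 26.5, with its highest H3K27ac region 19422 bp away, followed by INSIG1, which retains SREBP in the endoplasmic reticulum, at 21.6.

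Clock genes and the ROR and REV-ERB receptors had both signals at 14 of 17, against 51.3% of all protein-coding genes. NR1D1, the repressor REV-ERBα and a classic ROR target, had H3K27ac only, at 8.70, with the nearest RORγ region 7664 bp from its 5′-most start. Its relative NR1D2 had RORγ at 12.9 and H3K27ac at 41.8, with 48 bp between summits. BMAL1, the clock activator driven by ROR receptors, had 14.0 and 23.04, with 7 bp between summits. RORA had RORγ at 22.4 and H3K27ac at 6.16, and RORB had RORγ at 22.9 with the nearest acetylated region 273 kb away.

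The Th17 genes, targets of the lymphocyte isoform, were nearly empty of both. Neither signal was found at 8 of 9 (background 21.9%), among them IL17A, IL17F, IL23R and CCR6. IL1R1, the interleukin 1 receptor, had RORγ at 8.66 and H3K27ac at 39.2. Genes for acetyltransferases, bromodomain readers, deacetylases and receptor cofactors had both at 14 of 16 (background 51.3%), including EP300 (15.8 and 91.05), CREBBP (15.6 and 74.9) and NCOA3 (11.2 and 45.3). BRD2 and MED1 had H3K27ac only.

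RORγ without H3K27ac was more frequent in the lists of developmental transcription factors and of channel genes than in the other lists counted. Of 35 developmental transcription factors 26 had RORγ only (background 11.3%), 9 had both and 0 had H3K27ac only. The median RORγ fold was 20.7, and SOX17 (37.5), SOX1 (35.7) and PAX5 (31.0) were among those without H3K27ac. In the 9 with both, H3K27ac folds ran from 2.75 at LHX1 to 21.7 at PAX6, where the highest regions were 6112 and 6562 bp from the RORγ summits. Of 48 voltage-gated calcium and potassium channel genes 26 had RORγ only and 20 had both (background 51.3%). CACNG7 (44.6), KCNB2 (44.3), CACNA1E (43.7) and KCNA3 (39.3) were the highest without H3K27ac. KCND2, a potassium channel, had the highest H3K27ac fold of the group at 88.4, with RORγ at 8.46.

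The HOX clusters divided by cluster. Both signals were found at 23 of 39 HOX genes (59.0%, background 51.3%) and RORγ only at 11 (28.2%, background 11.3%). Of those 11, HOXD1, HOXD4 and HOXD8 to HOXD13 made up 8, with RORγ folds of 15.7 to 21.8, and HOXD3 was the only HOXD gene with both, at 14.9 and 6.45 in regions 20404 bp apart. In the HOXA cluster HOXA3 had 32.7 and 65.7 with 25863 bp between the summits, HOXA4 had 36.6 and 20.8 with 183 bp, while HOXA2 had the highest RORγ fold of all HOX genes at 38.1. HOXA2 and HOXB1 were counted as RORγ only, yet their RORγ regions met an acetylated region outside the window. HOXC11 and HOXC13 had H3K27ac only.

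Housekeeping genes of translation, respiration and protein turnover were acetylated, often without RORγ. Cytosolic ribosomal protein genes had H3K27ac at 75 of 77 and RORγ at 30, and H3K27ac only at 45 (background 15.5%). Of these 45, 4 had an acetylated region that met RORγ outside the window. Where RORγ was present its median fold was 6.69, with RPL22 (22.2), RPS19 (20.04) and RPL8 (16.1) highest, and those 3 had H3K27ac folds of 76.7, 95.4 and 68.6. The summits were 10014 bp apart at RPL22, 14 bp at RPS19 and 62 bp at RPL8. The following families were added after the gene tables had been seen. Mitochondrial ribosomal proteins had H3K27ac only at 38 of 78, proteasome subunits at 26 of 48, complex I subunits at 15 of 37 and the histones of the gene clusters at 41 of 64. Both signals were at 31, 17, 21 and 3 of them in that order (background 51.3%). Complex I subunits thus had both (56.8%) more often than H3K27ac only. The median G+C of these 5 groups in 1 kb at the 5′-most start ran from 50.9% to 58.0%, and that of genes with both signals was 64.1%.

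Olfactory receptor, protocadherin and keratin-associated protein genes had little of either signal. Of 399 olfactory receptor genes 381 had neither signal (background 21.9%), 17 had RORγ only and 1, OR1F1, had H3K27ac only at 9.65. Among those 17 OR2C3 (54.2) and OR3A2 (23.5) were strong, and the others had folds of 2.79 to 4.93. Clustered protocadherins had RORγ only at 13 of 53 (24.5%, background 11.3%) and H3K27ac at 0. RORγ was strong at 6 of those 13, and their median fold was 4.48. Keratin-associated proteins had RORγ only at 23 of 94 (24.5%) and both at 1. RORγ was strong at 7 of these 24, and their median fold was 3.69. Over all RORγ-only genes it was strong at 71.8%, so weak calls made up more of both families. RAB small GTPases, a further added family, had both at 39 of 62 (62.9%), and ZNF zinc finger genes had both at 224 of 508 (44.1%), RORγ only at 92 (18.1%) and H3K27ac only at 113 (22.2%). Over all genes these classes held 51.3%, 11.3% and 15.5%.

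**Figure D5:**
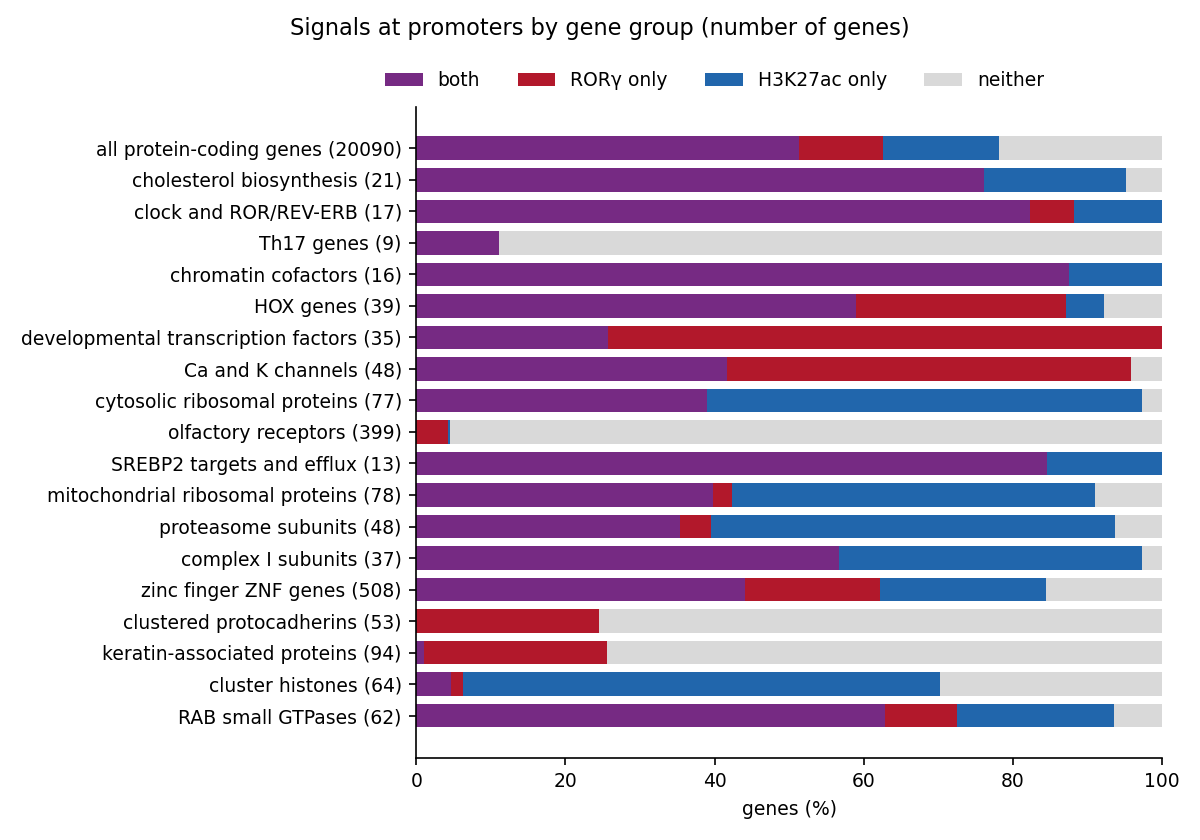
Percent of the genes of each group (x axis) with both signals, RORγ only, H3K27ac only or neither at the promoter, with the number of genes in parentheses. Cholesterol, clock and cofactor genes are mostly in the class with both, developmental factors and channel genes have 26 each with RORγ only, and 45 ribosomal protein genes have H3K27ac only.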

How the data were processed

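HCC70 cells were profiled by ChIP-seq after 24 h of vehicle, with 1 library per group. The authors aligned reads to hg19 and called peaks per library against input with MACS2 2.1.0. Their processing notes name Bowtie2 and their methods BWA. The deposited fold values are ratios of summit pileup to local background, each plus 1. The p- and q-values were deposited by the authors as −log10, and the deposited display score was not used. The H3K27ac list held part of a longer call set, and was used as deposited. No source used here states the selection rule.

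Regions on chromosomes 1 to 22 and X overlapped where they shared 1 bp. Fragments were recovered by inverting fold and −log10 p under a Poisson model, within 5% of 1 fragment. Positions came from GENCODE release 44 on GRCh37, by summit: promoter (at most 1000 bp before or 100 bp after a start), then gene body, then intergenic. Genes had a signal where a region overlapped the promoter window. Sequences came from the GRCh37 reference. G+C and motifs were read in all regions, and the printed examples were not taken from chromosome 8. Python 3.11.15, pandas 2.3.3, scipy 1.17.1 and pysam 0.24.0 were used, and the overlap and inversion code was tested on simulated data. Named genes were members of counted lists, the 10 highest folds in each promoter class and the highest regions of each class. Members and lists were chosen with earlier results of these data known. Other thresholds, overlap rules, windows and the XY018 libraries were tried. Values of some list members are not reported here.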

Additional observations from a re-analysis of the deposited data

How the results depend on the processing

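The order promoter, gene body, intergenic held in every alternative run, while the shares depended on how far down the RORγ list was read. Shares are given for all RORγ regions, promoter, gene body, intergenic, H3K27ac regions with RORγ and summits inside, in that order, then the median summit distance. With both lists at q of at most 0.01 they were 25.8%, 62.7%, 23.6%, 7.99%, 24.8%, 96.1% and 61 bp. At 1e-05 they were 52.3%, 71.8%, 49.9%, 22.9%, 24.7%, 97.7% and 53 bp. With the RORγ list cut to the length of the H3K27ac list they were 25.4%, 62.3%, 23.2%, 7.84%, 24.8%, 95.9% and 61 bp. In the XY018 libraries they were 20.2%, 57.0%, 18.0%, 6.26%, 23.3%, 94.9% and 65 bp. An overlap of at least 50% of the shorter region gave 16.1%, 52.1%, 14.6%, 4.78% and 27.02% for the first 5. Counting RORγ summits inside gave 15.8%, 51.2%, 14.3%, 4.68% and 25.3%. Merging H3K27ac regions under 1 kb apart gave 16.9% in all, 15.5% in gene bodies, 36.1% of H3K27ac regions and 95.9% inside. Promoters of 5 kb to either side gave 31.4%, 7.57% and 4.06% by position, and left 1627 genes with H3K27ac only instead of 3106. Protein-coding annotation alone gave 61.4%, 18.7% and 5.88%.

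No paired analysis was possible because each group had 1 library and no result came from a test. Depth limited weak regions most, where 4 to 7 fragments carried a call, and no region's absence from a list shows absence of binding or acetylation.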
